A study of Homo sapiens with 2 samples.

Results

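The genes described here are 8 members of the fibroblast growth factor (FGF) family, FGF1, FGF2, FGF5, FGF7, FGF13, FGF18, FGF19 and FGF21, and KLB, which encodes the co-receptor beta-klotho. They were taken by gene symbol, and all 9 were found among the 57820 genes listed in each library. RNA was sequenced from 2 human liver cancer lines grown without genetic modification in the same serum-containing medium, with 1 poly(A)-selected library per line. HepG2 is labelled hepatocellular carcinoma, and SKHEP1, a line from a liver adenocarcinoma, is labelled endothelial cells; the genotype of both is given as WT. No treatment or time course is part of these 2 samples. The stated purpose of the series was to profile the long noncoding RNA PURPL in these lines.

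Paracrine FGFs bind FGF receptors together with heparan sulfate, the sugar chain of cell-surface proteoglycans, and act near the cell that secretes them. The endocrine members FGF19 and FGF21 bind heparan sulfate weakly, circulate in blood and need beta-klotho to engage a receptor. In the liver the receptor FGFR4 with beta-klotho receives FGF19 from the intestine, which represses bile acid synthesis, while FGF21 is itself a hormone secreted by hepatocytes in fasting and stress. FGF11 to FGF14 form a branch that is not secreted and binds voltage-gated sodium channels inside the cell.

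The SKHEP1 library held 19940557 expected counts (estimated reads) and the HepG2 library 22477757. All 12 hepatocyte markers examined were at least 4-fold higher in HepG2, with summed levels of 97.4 transcripts-per-million (TPM) in SKHEP1 and 50110 in HepG2, and 9 of them were at 0 in SKHEP1, among them ALB and HNF4A. Of 11 endothelial markers analysed 6 were compared, with 3 past 4-fold towards SKHEP1 and 1, ESAM, towards HepG2, and the sums were 78.4 and 7.96 TPM. ENG (1926 and 18 counts), ROBO4 (343 and 4) and EGFL7 (178 and 5) were the 3 higher in SKHEP1. The defining endothelial genes KDR, CLDN5 and EMCN had 0 counts there and CDH5 had 1, so the endothelial label of the line was matched by some of these markers and not by others. Of 10 mesenchymal markers, 6 passed the same limit towards SKHEP1 and none towards HepG2, with sums of 7062 and 43.0 TPM and DCN at 0 in both libraries. Blood and immune markers summed to 149 and 2087 TPM, the latter almost wholly from the lysozyme gene LYZ, and PTPRC was at 5 and 0 counts. These marker sums move with the FGF differences below, and their part in them was not tested. Neither line has a second library, so each difference lacks a replicate check, and the 95% intervals given cover counting error only.

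SKHEP1 expressed FGF2, FGF5, FGF1 and FGF13, HepG2 expressed KLB, and the remaining 4 genes had no counts in either line. Of the 9 genes, 5 reached 10 expected counts in a library, and each of these did so in a single line. At a limit of 4-fold, 4 were higher in SKHEP1 and 1 in HepG2. Among the 13247 protein-coding genes that were compared, the class all 9 belong to, 16.2% passed that limit in favour of SKHEP1 and 11.8% in favour of HepG2, and of all 15436 genes of any type 2549 passed it towards SKHEP1 and 2002 towards HepG2, 29.5% in either direction. A gene that reaches the minimum in only a single line had little room not to differ, so these counts describe the genes and are not a measure of enrichment. In bulk RNA, fewer cells of a type and less RNA per cell cannot be told apart.

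**Figure D1:**
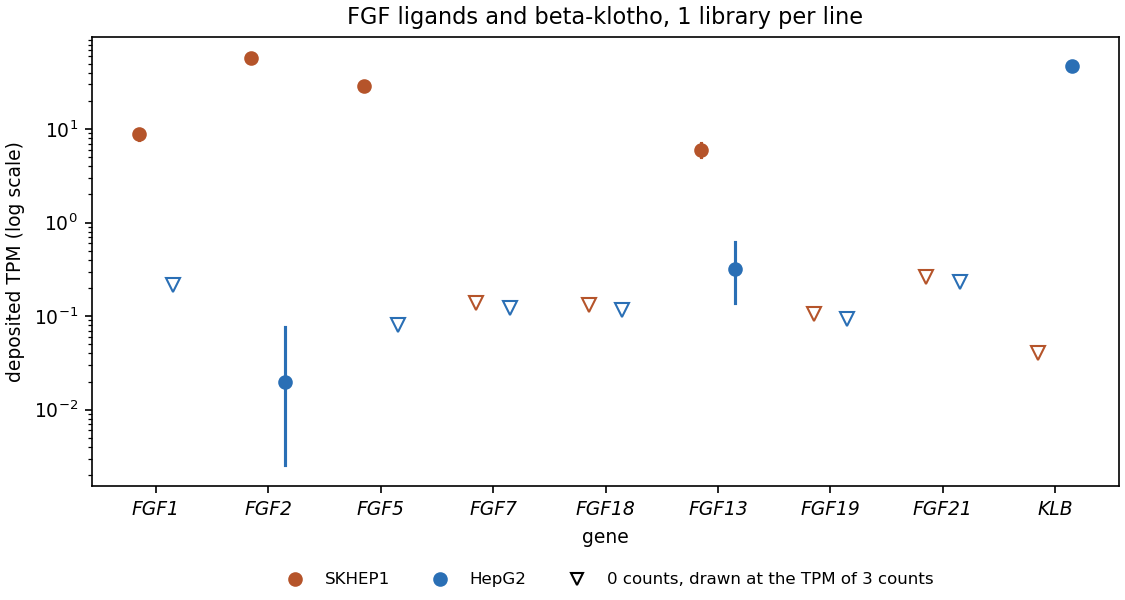
Deposited TPM of each gene on a log axis, in SKHEP1 (orange) and HepG2 (blue), 1 library per line; points are values, vertical lines are 95% counting intervals, and open triangles mark genes with 0 counts, drawn at the TPM that 3 counts would give. Filled SKHEP1 points stand at FGF1, FGF2, FGF5 and FGF13 only, the highest at 57.1 TPM, and KLB at 46.8 TPM in HepG2 is the only filled point above 1 TPM in that line.

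FGF2, or basic FGF, a growth factor for fibroblasts and endothelial cells that lacks a classical signal peptide, was the most abundant of the FGF genes. FGF2 (ENSG00000138685.8, plus strand of chromosome 4) had 4781 expected counts in SKHEP1 and 2 in HepG2, equal to 237 (exact Poisson interval 230 to 243) and 0.0902 (0.0109 to 0.326) counts-per-million (CPM). The levels do not overlap, and the ratio was 2624-fold in favour of SKHEP1, with an exact conditional interval of 726 to 21677. Per length, its deposited level in SKHEP1 was 57.1 TPM, above 79.4% of the 13831 genes with at least 10 counts there. The length given for the gene, a mean over its transcripts weighted by their share, was 6775 bases in both libraries, which is the length of the annotated transcript FGF2-001. The other listed transcript, FGF2-002, has 3880 bases. NUDT6, which overlaps FGF2 on the opposite strand, had 60 counts in SKHEP1 and 92 in HepG2, so the gene read from the other strand was not higher where FGF2 was.

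FGF5, a secreted regulator of hair growth that is also expressed in tumour lines, was the next in level. FGF5 (ENSG00000138675.12, plus strand of chromosome 4) had 1679 counts in SKHEP1 and 0 in HepG2. These equal 83.1 CPM (79.2 to 87.2) and a level taken as less than 0.135 CPM, the floor of 3 counts set for a count of 0. Taken against that floor it was at least 614-fold higher in SKHEP1, but the exact 95% interval of the ratio begins lower, at 499. Its weighted length of 4818.94 bases in SKHEP1 lies between FGF5-001 of 4555 bases and FGF5-002 of 5234 bases. The plain mean of the 5 listed lengths is 2775.80 bases, the value the file gives in HepG2 where no reads weight them, and against the floor turned into TPM by that shorter length the bound was 354-fold. Since no other listed transcript exceeds 4555 bases, part of the FGF5 signal in SKHEP1 was assigned to FGF5-002; the shares cannot be solved from a gene table. PRDM8, the nearest protein-coding gene on the side of lower coordinates, was likewise detected in SKHEP1 alone, at 110 counts against 0.

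FGF1, or acidic FGF, a ligand of all FGF receptors that also leaves the cell without a signal peptide, was present at a moderate level in SKHEP1. FGF1 (ENSG00000113578.13, minus strand of chromosome 5) had 192 counts in SKHEP1 and 0 in HepG2, equal to 9.50 CPM (8.21 to 10.9) against less than 0.135, and was at least 70.3-fold higher in SKHEP1 (exact 95% interval from 56.6). By TPM the bound was 40.6-fold, again with a shorter length given in HepG2, the plain mean of its 12 transcripts. The weighted length in SKHEP1 was 1905.97 bases, and only 2 of the 12 transcripts are longer, at 2582 and 3660 bases. Its neighbour SPRY4, a feedback inhibitor of FGF signalling, was 2.19-fold higher in HepG2 (1.93 to 2.51), the opposite direction to FGF1.

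FGF13, a channel-binding factor that stays inside the cell, was the only one of the 9 genes with more than 2 counts in both libraries. FGF13 (ENSG00000129682.9, minus strand of chromosome X) had 136 counts in SKHEP1 and 8 in HepG2, equal to 6.73 CPM (5.65 to 7.96) and 0.361 CPM (0.156 to 0.711). The ratio was 18.7-fold in favour of SKHEP1 (9.21 to 44.1). The files also give it different lengths, 1990 bases in SKHEP1 and 1939 in HepG2, and the latter is the length of transcript FGF13-002. None of the 7 transcripts of FGF13 whose length was found has 1990 bases, and the lengths of the other 2 are not known here. The reads of FGF13 were therefore not divided among its transcripts in the same way in both lines, with only 8 counts behind the HepG2 length. FGF13-AS1, the antisense transcript of the gene, was at 0 counts in both.

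KLB, the obligate co-receptor for FGF19 and FGF21, was the only one of the 9 genes expressed in HepG2 above 1 TPM. KLB (ENSG00000134962.6, plus strand of chromosome 4) had 0 counts in SKHEP1 and 3982 in HepG2, equal to less than 0.148 CPM and to 180 CPM (174 to 185). Against the floor of 3 counts it was at least 1209-fold higher in HepG2 (exact 95% interval from 983), a log2 ratio of 10.24, which a prior count of 2 instead of that floor moved to 10.89. Its deposited level in HepG2 was 46.8 TPM, above 74.2% of the 13405 genes with at least 10 counts there. The genes on its sides, RFC1 and RPL9, were detected in both lines and were 2.20-fold (2.07 to 2.33) and 1.36-fold (1.31 to 1.40) higher in HepG2, so a gap of that size was not shared along the locus.

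FGF7, FGF18, FGF19 and FGF21 had 0 counts in both libraries. FGF7, or keratinocyte growth factor, is a mesenchymal ligand for epithelial receptors, and FGF18 acts in bone and cartilage. The floor of 3 counts equals 0.148 CPM in SKHEP1 and 0.135 CPM in HepG2, and the exact 95% Poisson interval of a count of 0 reaches 0.183 and 0.166 CPM. Per length, 3 counts would equal 0.105 TPM for FGF19 in SKHEP1 and 0.0922 TPM in HepG2, and 0.261 and 0.230 TPM for the shorter FGF21. Neither endocrine ligand was therefore detectable at this depth in HepG2, the line with beta-klotho. Of all listed genes, 62.7% had 0 counts in both libraries. FAM227B, which overlaps FGF7 on the opposite strand, had 57 counts in SKHEP1 and 18 in HepG2, and the pseudogene copies FGF7P1 and FGF7P2 had 0.

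Around FGF19 on 11q13 most genes were transcribed in both lines. ORAOV1 (LTO1), its nearest protein-coding neighbour on the side of lower coordinates, stood at 268 and 304 counts in SKHEP1 and HepG2 and was 1.03-fold higher in the latter (0.874 to 1.22), and the cell cycle gene CCND1 was 1.97-fold higher in SKHEP1 (1.90 to 2.04). FGF4, the neighbour on the other side, and FGF3 were at 0 counts in both libraries, as FGF19 was. Of 8 genes listed for this region 6 were compared, with ANO1, a chloride channel gene, at least 18.3-fold higher in SKHEP1 and the other 5 within 4-fold. The neighbours of FGF18 and FGF21 likewise included expressed genes: NPM1, next to FGF18, had 43722 and 39883 counts, and BCAT2, next to FGF21, was 7.45-fold higher in SKHEP1 (5.45 to 10.4).

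Within SKHEP1 the order of levels per length was FGF2, FGF5, FGF1 and FGF13, at 57.1, 28.5, 8.81 and 5.95 TPM. The counting intervals of neighbours in this order did not overlap, the closest pair being FGF1 (7.61 to 10.1 TPM) and FGF13 (4.99 to 7.03 TPM). Outside the 9 genes, only FGF11 and FGF12, both of the intracellular branch, reached 10 counts in either library. FGF11 was at 5.90 TPM in SKHEP1 (5.02 to 6.88), not separable from FGF13, and at 1.00 TPM in HepG2. It was 6.59-fold higher in SKHEP1 by counts (4.36 to 10.3), and FGF12, at 101 and 0 counts, at least 37.0-fold. Of the 14 further FGF genes, 9 had 0 counts in both lines. Of the summed TPM of all 22 FGF genes in SKHEP1, 52.0% came from FGF2 and 26.0% from FGF5. In HepG2 that sum was 1.42 TPM, against 110 in SKHEP1, and 70.4% of it came from FGF11; no secreted FGF gene reached 10 counts there.

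Most FGF receptor genes were higher in HepG2, unlike the expressed ligands. FGFR1, the main receptor of mesenchymal cells, was the most abundant receptor in SKHEP1 at 48.2 TPM (46.0 to 50.5) and made up 76.8% of the summed TPM of FGFR1 to FGFR4. In HepG2 FGFR1 was at 86.5 TPM, 1.98-fold higher by counts (1.87 to 2.10), yet it held only 24.0% of the receptor sum. FGFR4, the hepatocyte receptor that pairs with beta-klotho, was counted 444 times in SKHEP1 and 6995 times in HepG2, where it was 14.3-fold higher by CPM. Its levels were 14.5 TPM (13.1 to 15.9) and 207 TPM (202 to 212), and it held 57.4% of the sum in HepG2. FGFR3, at 6 and 3334 counts, was 506-fold higher in HepG2 (232 to 1380). The gene FGFR2, which as an epithelial splice form is the receptor of FGF7, was at 0 and 52 counts.

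KLB was less abundant per length in HepG2 than the 3 main receptors of that line. Its 46.8 TPM (45.4 to 48.3) stood below FGFR3 at 65.8 TPM (63.6 to 68.1), FGFR1 and FGFR4, and these intervals did not overlap. KL, or alpha-klotho, the co-receptor of FGF23, had 0 counts in both lines. LCTL, sometimes called gamma-klotho, was 6.04-fold higher in SKHEP1 (2.81 to 14.9) but at only 44 and 8 counts. FGFRL1, a receptor-like protein without a kinase domain, was 7.58-fold higher in HepG2 (6.06 to 9.60). Among the 8 receptors and klothos 7 could be compared. Of these, 5 passed 4-fold towards HepG2 and LCTL alone towards SKHEP1, and FGFR1 lay within 4-fold. The list had a median log2 ratio, HepG2 over SKHEP1, of 3.84, against -0.03 over all genes compared. FGFBP3, a secreted carrier that releases FGFs from the matrix, was 3.86-fold higher in HepG2 (2.56 to 6.01).

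**Figure D2:**
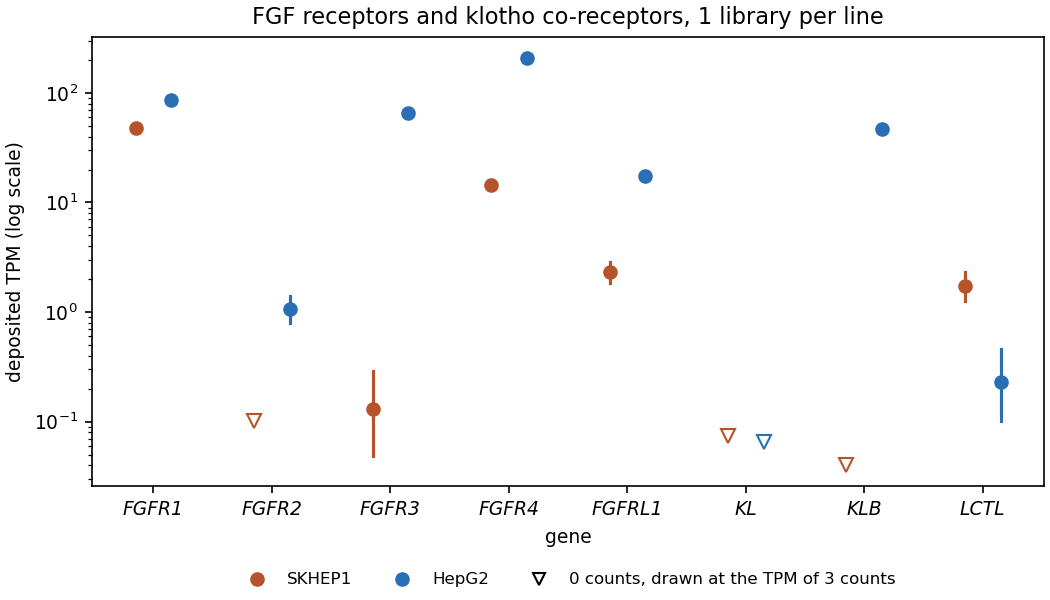
Deposited TPM of FGF receptors and klotho genes on a log axis, in SKHEP1 (orange) and HepG2 (blue), drawn as for the ligands, with open triangles for 0 counts. FGFR1 lies within 4-fold between the lines, while FGFR3, FGFR4 and KLB reach 65.8, 207 and 46.8 TPM in HepG2 and KL is at 0 counts in both.

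**Figure D3:**
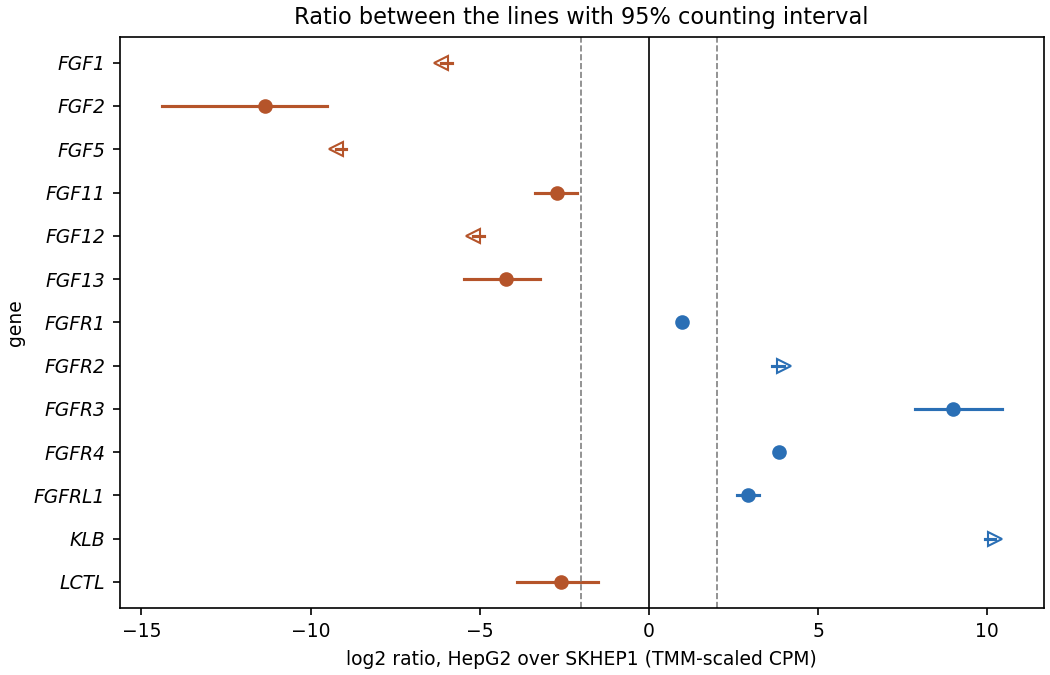
Log2 ratio of TMM-scaled CPM, HepG2 over SKHEP1, for the 6 FGF genes and 7 receptor or klotho genes that were compared; lines are exact 95% counting intervals, open arrowheads are lower bounds against 3 counts with the line reaching to the exact 95% lower limit, and dashed lines mark 4-fold. All 6 FGF genes lie on the SKHEP1 side and all receptors and KLB on the HepG2 side, with LCTL the exception.

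Genes for the export of FGF1 and FGF2 were mixed in direction. Of 6 listed, 3 passed 4-fold towards SKHEP1 and 1 towards HepG2. ANXA2, the annexin on the inner membrane leaflet, was 40.5-fold higher in SKHEP1 by counts (38.7 to 42.4) and 22.0-fold by TPM, and TEC, a kinase that phosphorylates FGF2, was at 61 and 4 counts. SPHK1, the sphingosine kinase needed for FGF1 release, was 5.23-fold higher in HepG2 (4.73 to 5.80). Over the list, the median log2 ratio was -2.37.

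The sodium channel genes whose products FGF13 and its relatives bind were divided between the lines. SCN8A had 670 counts in SKHEP1 and 56.9 in HepG2 and was 12.9-fold higher in SKHEP1 (9.84 to 17.2), and SCN2A, at 134 and 6.01 counts, 24.5-fold. SCN9A was 17.0-fold higher in HepG2 (12.7 to 23.5), and SCN1A had 0 and 425 counts. The list also holds the scaffold gene MAPK8IP2, whose product binds these FGFs and which was 2.25-fold higher in SKHEP1 (1.83 to 2.79). Of the 8 genes 5 were compared, the 4 channel genes above, with 2 past the limit in each line, and MAPK8IP2 within it.

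Heparan sulfate enzymes, which shape the FGF co-receptor on the cell surface, also differed by gene. HS6ST1 and HS6ST2 add the same 6-O-sulfate group that the FGF-receptor complex uses. HS6ST1 was 17.8-fold higher in HepG2 (15.6 to 20.4), whereas HS6ST2, at 93 and 1 counts, was 102-fold higher in SKHEP1 by counts (17.9 to 4076) and 37.0-fold by TPM. SULF2, which removes that group outside the cell, was 35.2-fold higher in HepG2 (27.1 to 46.5), and EXT1 and NDST1, which build and first modify the chain, were 5.99-fold (5.61 to 6.41) and 4.24-fold (4.07 to 4.42) higher in SKHEP1. Of 10 enzymes compared, 3 passed 4-fold towards SKHEP1 and 2 towards HepG2, while 5 lay within it, and the median log2 ratio was -0.04.

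The adaptors that carry the receptor signal were present in both lines, and all 9 lay within 4-fold, with a median log2 ratio of 0.16. FRS2, the docking protein of FGF receptors, was 2.13-fold higher in SKHEP1 (1.92 to 2.35), and PLCG1, the phospholipase that binds the receptor tail, 2.71-fold higher in HepG2 (2.56 to 2.86). The 12 feedback and target genes had a median of -0.08, and 7 of them lay within 4-fold, against 3 past the limit in SKHEP1 and 2 in HepG2. A call towards SKHEP1 was lost on other scales: IL17RD, a receptor-like inhibitor of FGF signalling at 46 and 12 counts, was 4.21-fold higher by counts (2.19 to 8.73) but 1.26-fold by TPM. ETV4, an ETS factor induced by FGF signalling, was 8.25-fold higher in HepG2 (7.54 to 9.05), while its relative ETV1 had 672 counts in SKHEP1 against 5 in HepG2. DUSP6, the ERK phosphatase of the feedback loop, was 1.63-fold higher in SKHEP1 (1.49 to 1.78), and SPRY2 2.93-fold (2.45 to 3.52). In the other direction, SPRY1, at 74 and 519 counts, was 6.39-fold (5.00 to 8.26) and EGR1 2.46-fold (2.00 to 3.04) higher in HepG2.

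Among genes of the bile acid axis in which FGF19 and beta-klotho act, nearly all that could be compared passed the limit towards HepG2, as KLB did. Of 13 listed 9 were compared, and 8 of these passed the 4-fold limit, each towards HepG2, against 2002 of all 15436 genes compared. The 9 compared had a median log2 ratio of 4.60. Of the 13, 11 had 0 counts in SKHEP1, so most of those compared reached the minimum in HepG2 alone and had little room not to differ. NR1H4, the bile acid receptor that induces FGF19 in the intestine, was detected in HepG2 alone, with 2074 counts, as was its target NR0B2, with 831; each had 0 in SKHEP1. CYP7A1, the rate-limiting enzyme of bile acid synthesis that FGF19 represses, was at 27 counts in HepG2, or 0.680 TPM, and at 0 in SKHEP1. ABCB11, the canalicular bile salt pump, had 0 counts in both libraries.

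Genes that act upstream of FGF21 were expressed although FGF21 had 0 counts. ATF4, the stress factor that binds the FGF21 promoter, had 5190 counts in SKHEP1 and 7086 in HepG2, and was 1.24-fold higher in HepG2 (1.20 to 1.29). PPARA, the fasting-activated receptor, was 5.96-fold higher in HepG2 (5.01 to 7.14). The carbohydrate sensor MLXIPL was at 3 and 1392 counts, 423-fold higher in HepG2 (144 to 2052). CREB3L3, a liver factor that induces FGF21, was at 0 and 132 counts. In the other direction, CPT1A, which admits fatty acids to mitochondria, was 2.72-fold (2.50 to 2.96) and ASNS, the asparagine synthetase, 1.67-fold (1.56 to 1.80) higher in SKHEP1, both within the limit. The 11 genes of this list had a median log2 ratio of 1.69, and 5 of them passed the limit towards HepG2 while the other 6 lay within 4-fold. By TPM 4 passed it.

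**Figure D4:**
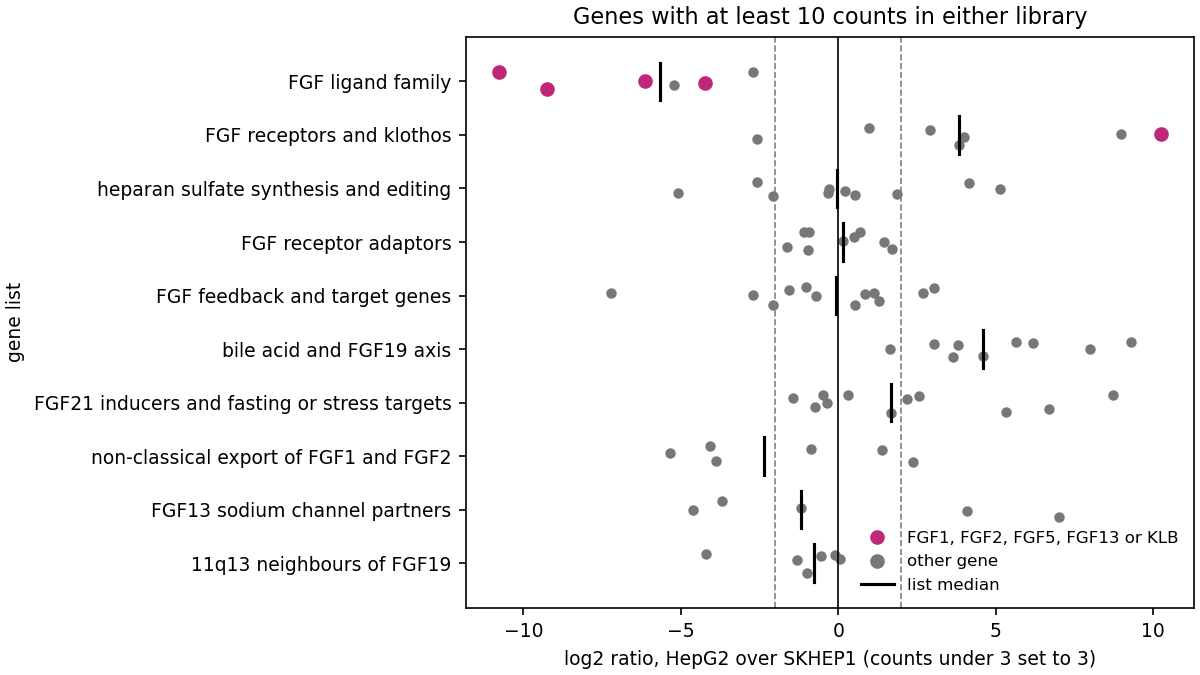
Log2 ratio, HepG2 over SKHEP1, of each compared gene, by gene list, with FGF1, FGF2, FGF5, FGF13 and KLB in magenta, list medians as black bars and dashed lines at 4-fold; vertical scatter within a list has no meaning. The FGF family lies wholly below -2, the receptor list has its median at 3.84 and the bile acid list at 4.60, and the adaptors stay between the dashed lines.

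Several genes had nearly the same pair of values as the 3 members with most counts, by distance between log2 CPM values over the 2 libraries. Nearest to FGF2 were DNER (4747 and 0 counts), MGLL (4899 and 0) and PAPPA (4935 and 0). KLB lay closest to F5, or coagulation factor V (0 and 3911), MAT1A (2 and 3905) and LIN28B (0 and 4147), and FGF5 to CTBP2 (1696 and 2), MDFIC (1656 and 0) and AC099522.1 (1705 and 0). Within a distance of 0.5 lay 24 genes for FGF2, 31 for KLB and 58 for FGF5. With 2 libraries such likeness is only a shared pair of levels.

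Promoters of the genes with high counts in a single line are shown with that of FGF21, which was at 0 counts in both. They are RefSeq windows on build GRCh38.p14, plus strand, printed 5′ to 3′ from 250 bases before the RefSeq start up to that start or, for FGF2 and KLB, to the start of the gene in GENCODE 29, which lies further upstream. The base counts and motif searches below used the whole windows. Capitals mark the motif found.
FGF2, chr4:122826581-122826707: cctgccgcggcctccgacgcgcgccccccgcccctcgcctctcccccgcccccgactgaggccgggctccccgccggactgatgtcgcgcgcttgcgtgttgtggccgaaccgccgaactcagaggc
FGF5, chr4:80266338-80266587: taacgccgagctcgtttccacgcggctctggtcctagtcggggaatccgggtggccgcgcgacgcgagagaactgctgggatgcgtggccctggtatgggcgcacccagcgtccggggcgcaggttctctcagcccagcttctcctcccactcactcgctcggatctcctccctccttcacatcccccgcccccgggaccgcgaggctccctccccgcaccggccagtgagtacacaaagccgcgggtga
KLB, chr4:39406680-39406852: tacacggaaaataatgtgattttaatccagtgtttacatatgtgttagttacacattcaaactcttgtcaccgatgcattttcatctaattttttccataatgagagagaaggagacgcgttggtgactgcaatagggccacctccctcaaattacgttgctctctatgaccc
FGF21, chr19:48755274-48755523: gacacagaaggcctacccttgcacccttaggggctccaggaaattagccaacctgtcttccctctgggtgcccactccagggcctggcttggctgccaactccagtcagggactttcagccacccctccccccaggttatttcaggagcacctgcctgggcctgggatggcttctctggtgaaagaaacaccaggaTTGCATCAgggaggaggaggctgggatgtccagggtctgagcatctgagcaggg

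The promoters differed in their CpG content. Over 300 bases, from 250 before to 50 after the start, FGF2 held 41 CpG dinucleotides and the first start of FGF5 31, above 93.3% and 79.3% of 35116 promoters of that length. KLB held 6, above 33.7%, and FGF21 1, above 3.96%. FGF18, at 0 counts in both lines, held 38. FGF13 held 34 at its first start and 0 at its second. FGF1, which was expressed in SKHEP1, held only 2, 2, 8 and 5 at its 4 starts, and the second start of FGF5 held 6.

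The windows were searched for short motifs on both strands, in 13 promoters of the 8 genes with an entry. The first was TGATGNAA, the core of the element that ATF4 binds, and it was found in FGF21 on the minus strand, 54 bases before the start, where it is the run in capitals; 3.62% of all promoters hold it. The second was the TATA box, searched as TATAAA and present in 11.5%. Taken in the direction of each gene, it was found in FGF13 on the opposite strand, 30 bases before the first start. In FGF5 it was on both strands, 215 and 213 bases before the second start. AGGTCA, the nuclear receptor half-site (13.8%), was found in FGF7 and in the fourth start of FGF1. That start of FGF1 also held the AP-1 motif, TGACTCA, which stands in 4.95%. The E-box, searched as CACGTG and present in 7.26%, was found in none of the 13. The exact inverted repeat of the half-site, spaced by a single base, which overlaps the half-site motif, was in 0 of the 35116 promoters, so its absence from these 13 carries no information. A match, or its absence, says nothing on which factors act there.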

How the data were processed

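Gene tables of 2 libraries, 1 per cell line, were used, grouped by the cell line label. The submitters' processing notes name hg19, cutadapt, STAR, RSEM and DESeq2. Strand setting, annotation and versions were not given in the sources used here, which leaves overlapping genes uncertain. The deposited columns are, per the file headers, RSEM expected counts, TPM, FPKM and isoform-weighted gene lengths.

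Expected counts were rounded and scaled with TMM (edgeR 4.0.16, R 4.3.3) over the whole table. The factors came to 1.01 (SKHEP1) and 0.99 (HepG2). The genes compared reached 10 expected counts in at least 1 library and were called at 4-fold. For a gene at 0 the fold was taken against a floor of 3 counts in that library and written as at least a fold, and genes with 1 to 3 counts were given with the raw ratio and its interval. The exact 95% limit of a count of 0 lies above this floor, so the exact lower limit of such a ratio lies below the fold written. For calls and list medians every count under 3 was set to 3. Intervals at 95% are exact Poisson or exact conditional Clopper-Pearson intervals. Reads were not tagged by molecule in any stated step, so PCR copies may be counted and these intervals and floors cover counting error only. No difference was tested, and the comparison was checked on simulated counts.

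The genes, lists and naming rule were chosen with earlier results of these data known. The rule named the 9 genes, expressed FGF family genes, receptors and klothos, up to 4 genes per other list with the largest ratio and 2 going the other way, 3 nearest patterns for 3 members, and neighbours. The background per direction was first taken over all genes compared; restricting it to protein-coding genes was chosen after the values were seen, and the all-gene counts are given beside it. Genes named outside the rule, chosen after their values were seen, are those at or near 0 and DUSP6, IL17RD, CYP7A1, ABCB11, ATF4 and some cell markers. Gene types, transcript lengths and overlaps come from GENCODE release 29, matched by stable identifier; neighbours and promoters come from RefSeq (GRCh38.p14), which held a promoter for 8 of the 9 genes. Protein comparison was not done here. PECAM1 was not analysed here. A further neighbouring gene is not reported here. Python 3.11.15 with scipy 1.17.1 was used.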

Additional observations from a re-analysis of the deposited data

How the results depend on the processing

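The 4 genes higher in SKHEP1 and the 1 higher in HepG2 stayed at these numbers under all 11 alternatives: total counts, DESeq2 1.42.0 size factors, TPM, FPKM, a prior count of 2, unrounded counts, a minimum of 1 or of 50 counts, a 2-fold or an 8-fold limit, and the lower bound of the ratio. Over the 6 alternatives that change a ratio, the log2 ratio lay between -6.67 and -5.33 for FGF1, -10.82 and -10.33 for FGF2, -9.78 and -8.46 for FGF5, -4.26 and -3.91 for FGF13, and 10.19 and 10.89 for KLB. The main FGF2 value was -10.77, with its HepG2 count of 2 set to 3. Its raw ratio of 2624-fold was larger and lies beyond the FGF2 range. For receptors and klothos the count higher in SKHEP1 fell to 0 with a minimum of 50, an 8-fold limit or the lower bound, which LCTL does not reach. With a 2-fold limit the counts were 1 for binding proteins in HepG2, 2 for adaptors in each line, 5 and 4 for feedback genes in SKHEP1 and HepG2, 1 for FGF21 inducers in SKHEP1, 2 for export genes in HepG2, 2 for 11q13 genes in SKHEP1 and 1 for overlapping partners in SKHEP1. At that limit they were also 3 for heparan sulfate enzymes, 9 for the bile acid axis and 6 for FGF21 inducers in HepG2, and 3 for FGF13 partners in SKHEP1. With an 8-fold limit they were 1 for heparan sulfate enzymes in SKHEP1, 1 for feedback genes in each line, 3 for FGF21 inducers in HepG2 and 0 for export genes in HepG2. That limit also left 5 for the FGF ligand family in SKHEP1 and 4 for receptors and klothos in HepG2. With a minimum of 50 counts they were 1 for feedback genes in SKHEP1, 2 for export genes in SKHEP1 and 5 for the bile acid axis in HepG2. Feedback genes higher in SKHEP1 numbered 2 with TPM, FPKM, a prior count of 2 or the lower bound, without IL17RD, and FGF21 inducers higher in HepG2 numbered 4 with TPM, FPKM, a minimum of 50 counts or the lower bound. The median of the feedback genes changed sign, to 0.07 with TPM and 0.10 with FPKM; the cause was not tested. The counts at other limits and minimums moved by their construction. No paired analysis was possible because each line has 1 library. Depth limits statements on FGF7, FGF18, FGF19 and FGF21 to levels above 3 counts.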
